A study of Mus musculus with 19 samples.

Results

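The genes described here make, degrade and transmit cyclic AMP (cAMP) in the oocyte. They are 9 of the 25891 genes in the deposited table and were chosen by name: the receptors *Gpr3* and *Gpr12*, the adenylyl cyclases *Adcy3* and *Adcy9*, the phosphodiesterase *Pde3a*, and the protein kinase A (PKA) subunits *Prkaca*, *Prkacb*, *Prkar1a* and *Prkar2b*. RNA was measured in 19 libraries from BL6 females aged 6 to 10 weeks. Oocytes in metaphase II (MII) gave 5 libraries for each genotype, CPEB3+/- and CPEB3-/-, and 2cell embryos gave 5 for CPEB3+/- and 4 for CPEB3-/-. Females of both genotypes were superovulated with 5 IU of PMSG and, 48 h later, 5 IU of hCG. The MII oocytes were ovulated in vivo. The embryos were taken as zygotes 17 h after hCG from mated females, were cultured in M16 medium and were collected 37 h after hCG, so their label gives the genotype of the mother. CPEB3 is an RNA-binding protein of the CPEB family. In the study's model the floxed gene was deleted by a Cre recombinase under the *Zp3* promoter, which is active in growing oocytes, and the controls measured here are heterozygous, not wild type. Each library was made from a few pooled cells.

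The deposited values are FPKM in which the length is the whole gene, introns included. They were turned back into FPM, a gene's fragments scaled to the depth of its library, and into FPM per kb of exon where genes were compared with each other. By the steps between low values the libraries held 17.2 to 23.6 M fragments, and 10 fragments are 0.508 FPM at the median depth. The targeted gene *Cpeb3* was higher, not lower, in the MII libraries labelled CPEB3-/- (2.00-fold, adjusted p 0.00110 in limma), where all 5 lay above all 5 labelled CPEB3+/-. At the 2cell stage it was not called (adjusted p 0.0517). It averaged 14.1 ± 4.50 FPM (SD, n = 5) in CPEB3+/- and 30.3 ± 6.09 FPM (n = 5) in CPEB3-/- MII oocytes, and 5.68 ± 2.78 FPM (n = 5) and 10.4 ± 2.42 FPM (n = 4) in 2cell embryos. A value for the whole gene includes exons outside a deleted part and so does not check the deletion, so whether each library carries the right label cannot be told from this gene, and the genotypes below are those of the labels. All 10 oocyte markers were present in every group, and summed to 4655 to 6090 FPM across MII libraries and to 736 to 1177 FPM across 2cell libraries, with a median of 770 FPM in CPEB3+/- and 1027 FPM in CPEB3-/- embryos. Between genotypes 1 of the 10 was called at each stage. At MII *Mos* was 3.38-fold lower in CPEB3-/- oocytes (adjusted p 2.30e-06 in limma), and at the 2cell stage *Ooep* was 1.82-fold higher in CPEB3-/- embryos (adjusted p 3.64e-04). The 6 markers of the 2cell stage in the table summed to 57.4 to 65.1 FPM in CPEB3+/- and 87.6 to 120 FPM in CPEB3-/- MII oocytes (*Zscan4d* alone averaged 5.51 and 47.3 FPM). At the 2cell stage their sums had medians of 1543 and 1192 FPM and overlapped, at 1209 to 2030 and 1069 to 1429 FPM (*Zscan4d* 499 and 243 FPM). In CPEB3-/- MII oocytes limma called 2 of 5 tested higher, *Usp17lc* and *Zscan4d*. In CPEB3-/- 2cell embryos it called 2 of 6 lower, *Gm8300* and *Zscan4d*, and 1 higher, *Usp17lc*. Of all genes 17.8% were called at MII and 21.3% at the 2cell stage. The 10 cumulus and granulosa cell markers in the table summed to 25.5 to 49.3 FPM in MII oocytes, most of it *Cyp19a1*, and to 6.63 to 16.5 FPM at the 2cell stage, and 1 to 3 of them lay under 3 fragments. Between genotypes limma called 0 of 2 tested at MII. At the 2cell stage it called 1 of 5, *Tnfaip6*, which was lower in CPEB3-/- embryos, against the same shares of all genes. The 3 sperm markers in the table summed to 0.832 to 4.51 FPM, and the 2 blood markers (*Hba-a1* and *Hba-a2*) to at most 0.409 FPM in MII oocytes and to 42.4 to 133 FPM at the 2cell stage. The part of other cells in the results below was not tested.

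High cAMP holds the fully grown oocyte in prophase I. Receptors such as GPR3 keep the stimulatory G protein active, adenylyl cyclases make cAMP from ATP, and PDE3A, the main phosphodiesterase of the oocyte, degrades it. cAMP binds the regulatory subunits of PKA and frees the catalytic subunits, which keep CDK1 inactive through the kinase WEE2 and the phosphatase CDC25B. Meiosis resumes when cyclic GMP falls, PDE3A becomes active and cAMP drops. The oocytes measured here had passed that point and were in their second arrest, so the values are transcript levels after maturation and after the first cleavage, and at the 2cell stage maternal and newly made transcripts cannot be told apart.

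*Prkar1a*, *Prkar2b*, *Pde3a* and *Gpr3* were the abundant members in MII oocytes. Per kb of exon, *Prkar1a* averaged 16.8 ± 2.00 FPM (SD, n = 5) in CPEB3+/- MII oocytes, more than 92.8% of the genes with an annotated exon length. *Prkar2b* followed with 9.79 ± 2.26 FPM per kb, *Pde3a* with 7.77 ± 0.769 and *Gpr3* with 4.48 ± 1.97. The catalytic subunits and the cyclase were lower, at 1.4 ± 0.493 FPM per kb for *Prkaca*, 1.16 ± 0.319 for *Adcy9* and 0.564 ± 0.154 for *Prkacb*. *Gpr12* and *Adcy3* were near the limit of detection, at 0.0431 and 0.0123 FPM per kb. In this order *Prkar2b* and *Pde3a* overlapped over the 5 libraries, as did *Prkaca* and *Adcy9*, *Adcy9* and *Prkacb*, and *Gpr12* and *Adcy3*, while the other neighbours did not.

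In 2cell embryos *Prkar2b* and *Gpr3* headed the order and *Prkar1a* and *Pde3a* had dropped back. *Prkar2b* averaged 10.5 ± 2.24 FPM per kb in CPEB3+/- 2cell embryos, without overlap with *Gpr3* at 4.13 ± 1.27. *Prkar1a* stood at 3.27 ± 0.321 and *Pde3a* at 1.62 ± 0.384 FPM per kb, so that *Gpr3* and *Prkar1a* overlapped. In CPEB3-/- 2cell embryos *Gpr3* reached 9.15 ± 2.16 FPM per kb (n = 4), which overlapped with *Prkar2b* at 13.6 ± 1.22 and lay above *Prkar1a* at 3.73 ± 0.535.

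**Figure D1:**
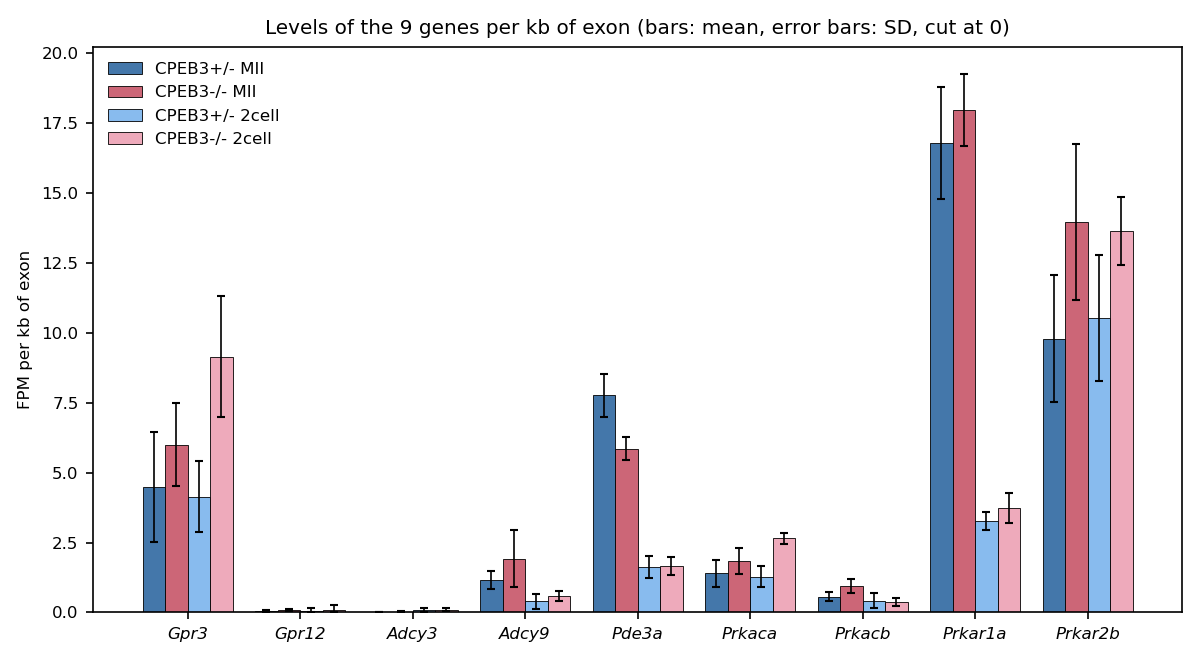
Mean level of the 9 genes in FPM per kb of exon (linear axis from 0), with the SD over the libraries of each group as error bars. *Prkar1a* leads in MII oocytes at 16.8 and 18 FPM per kb and *Prkar2b* in 2cell embryos at 10.5 and 13.6, while *Gpr12* and *Adcy3* lie close to 0.

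CPEB proteins bind the cytoplasmic polyadenylation element (CPE) of the 3′UTR, next to the polyadenylation signal (PAS), and the 3′ ends of the members are shown for that reason. The letters TTTTAT or TTTTAAT (CPE) and AATAAA or ATTAAA (PAS) were searched on the transcript strand in the last 150 bases of the longest annotated 3′UTR of each gene in GENCODE vM21. A CPE was found in 4 of the 9 members (*Adcy3*, *Pde3a*, *Prkacb* and *Prkar2b*) and in 23.2% of 15951 genes with such a 3′UTR, and a PAS in 79.2% of those genes. The stretches that hold the last motifs are given 5′ to 3′, with CPE and PAS in capitals. In *Prkar2b* (GRCm38 chr12:31958476-31958493, minus strand) the CPE and the PAS touch, and the PAS ends at the last annotated base. In *Adcy3* (chr12:4213492-4213515, plus strand) they overlap, and in *Prkacb* (chr3:146729593-146729622, minus strand) they start 49 and 25 bases before the end. The CPE of *Pde3a* (chr6:141507331-141507353, plus strand) starts 110 bases before the end of a 3′UTR of 8555 bases, and no PAS of these letters lies in the window. In this window *Gpr3*, *Gpr12*, *Prkaca* and *Prkar1a* had a PAS alone, and in *Adcy9* neither was found. Over the whole 3′UTR only *Adcy9* had 0 CPE. *Gpr3* and *Prkar1a* held 2 each there, *Gpr12*, *Prkaca* and *Adcy3* 1 each, *Prkar2b* 5, *Prkacb* 7 and *Pde3a* 17. The share of all genes with a CPE in the whole 3′UTR was not counted. *Gpr3* (chr4:133209351-133209374, minus strand) and *Prkar1a* (chr11:109669618-109669641, plus strand) are shown beside the other 4 for their lack of a CPE in the window.
Prkar2b: gcacacTTTTATAATAAA
Adcy3: aggactgTTTTATTAAAagcttta
Prkacb: TTTTAATtcatcaataaccgcaaaATTAAA
Pde3a: aattgacaTTTTAATccacaagt
Gpr3: accctactcAATAAAaaaaaaatg
Prkar1a: aggtcacagAATAAAaaagatgaa

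To ask whether the members differed between genotypes, CPEB3-/- libraries were compared with CPEB3+/- libraries within each stage on log2(FPM + 0.5) in limma, with p values adjusted over all genes tested, and a gene was called when its adjusted p was under 0.05 and its change over 1.5-fold. In MII oocytes 7 of the 9 members could be tested and 1 was called, *Prkacb*, which was higher. Of all 12717 genes tested, 17.8% were called, 8.09% higher and 9.67% lower. *Pde3a* was lower in CPEB3-/- oocytes by less than 1.5-fold and was 1 of 2 members with an adjusted p under 0.05, as were 25.2% of all genes. It was also the only member whose genotypes did not overlap, which held for 16.2% of all genes. The median log2 fold change was 0.37 over the 7 members and 0.01 over all genes.

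In 2cell embryos 8 of the 9 members could be tested and 2 were called, *Gpr3* and *Prkaca*, both higher in CPEB3-/- embryos. Of all 16500 genes tested, 21.3% were called, 10.4% higher and 11.0% lower. The same 2 members were those without overlap between genotypes, against 19.3% of all genes. The share of each library's depth that fell in the listed genes also separated these genotypes, at 49.3 to 53.3% in CPEB3+/- and 44.7 to 48.4% in CPEB3-/- 2cell libraries, and its part in the results was not tested. At MII that share was 60.0 to 62.0% and 55.9 to 60.5%. The median log2 fold change was 0.25 over the 8 members and 0.00 over all genes.

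**Figure D2:**
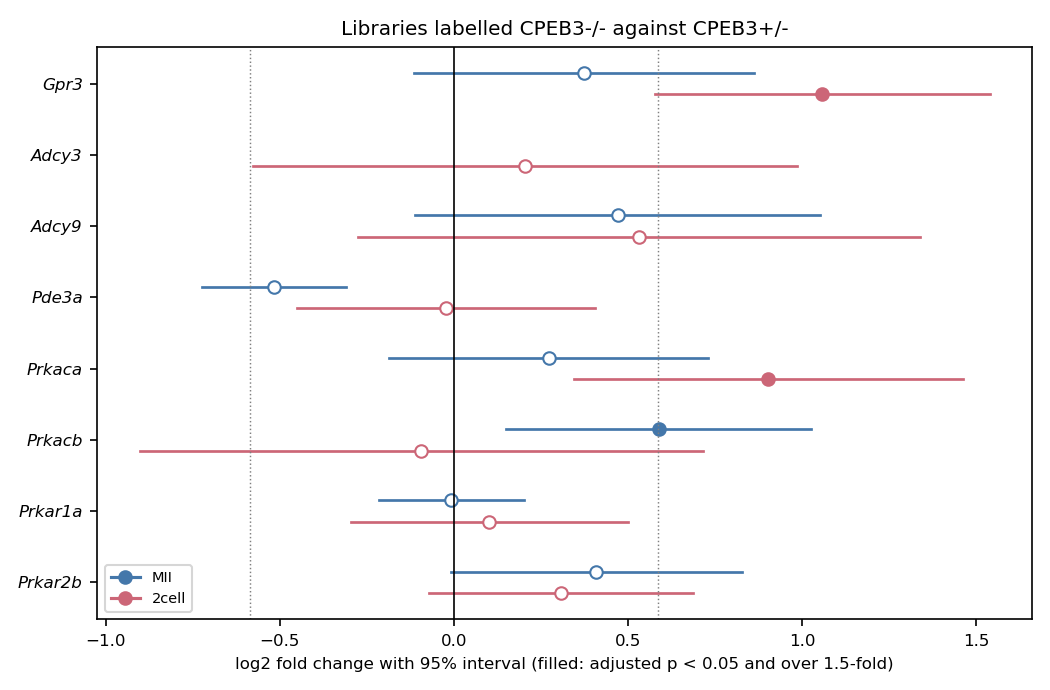
Log2 fold change of CPEB3-/- against CPEB3+/- libraries (horizontal axis) in MII oocytes and 2cell embryos, with 95% intervals, and dotted lines at 1.5-fold. Filled points mark called genes: *Gpr3* (1.06) and *Prkaca* (0.90) in 2cell embryos and *Prkacb* (0.59) in MII oocytes, while *Pde3a* lies at -0.52 in MII oocytes inside the dotted line.

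The receptor *Gpr3* rose in CPEB3-/- 2cell embryos. The CPEB3+/- 2cell libraries held 7.43, 10.8, 14.8, 14.9 and 8.56 FPM and the CPEB3-/- libraries 23.7, 21.2, 21.4 and 33.7 FPM. Every CPEB3-/- embryo library lay above every CPEB3+/- library. The difference was 2.08-fold (log2 fold change 1.06, SE 0.23, adjusted p 0.00300 in limma). The two-sided exact permutation test gave a p of 0.00794, the smallest it can give for 5 against 4 libraries. *Gpr3* kept its call without any 1 library (adjusted p 0.00241 to 0.0163 in limma). It also kept it in all 13 other settings, but there the log2 fold change went down to 0.73 and the adjusted p up to 0.0399 in limma.

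In MII oocytes *Gpr3* varied more within the genotypes than between them. It stood at 8.38, 18.8, 6.38, 10.8 and 16.9 FPM in CPEB3+/- and at 21.3, 18, 18.4, 12.2 and 12.1 FPM in CPEB3-/- oocytes. The groups overlapped, with 1 CPEB3-/- library above and 3 CPEB3+/- libraries below all of the other group (log2 fold change 0.37, 95% interval -0.11 to 0.86, adjusted p 0.243 in limma). The difference between the genotype effects of the 2 stages was 0.65 on the log2 scale (SE 0.34, adjusted p 0.256 in limma), so the effect on *Gpr3* was not shown to differ between stages. The gene overlaps *Cd164l2* on the opposite strand, and strand-specific counting is not given in the sources used here.

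*Gpr12*, the second receptor, was close to the limit of detection and did not pass the filter on low values. Tested without the filter, it was not called in any comparison of 2 groups (adjusted p 0.380 at MII and 0.918 at the 2cell stage in limma). In CPEB3+/- MII oocytes 3 libraries were listed at 0 and 2 held 0.241 and 0.300 FPM, about 5 and 6 fragments. The CPEB3-/- MII libraries held 0.137 to 0.301 FPM. A library at 0 allows up to 0.153 FPM at the median depth, by 3 fragments and counting error only. The highest value was 0.927 FPM in 1 CPEB3-/- 2cell library, about 16 fragments, against 0.106, 0 and 0 FPM in the other 3 libraries.

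Of the cyclases, *Adcy3* was as rare as *Gpr12* in MII oocytes and *Adcy9* was clearly detected. *Adcy3* reached 0.197 FPM at most in CPEB3+/- and 0.305 FPM in CPEB3-/- MII oocytes, and 1 library of each was listed at 0. In 2cell embryos it stood at 1.42, 0.159, 0.320, 0.164 and 0.532 FPM in CPEB3+/- and at 0.505, 0.888, 0.915 and 0.265 FPM in CPEB3-/- libraries. The genotypes overlapped (log2 fold change 0.20, 95% interval -0.58 to 0.98, adjusted p 0.736 in limma). The highest of these values was about 26 fragments, and the gene overlaps *Cenpo* on the opposite strand.

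*Adcy9* split the CPEB3-/- MII libraries. It stood at 4.83, 7.30, 3.75, 7.11 and 7.28 FPM in CPEB3+/- and at 15.7, 15.7, 6.67, 5.40 and 6.36 FPM in CPEB3-/- oocytes. Only 2 CPEB3-/- libraries lay above the CPEB3+/- group, and the other 3 lay within it (log2 fold change 0.47, 95% interval -0.11 to 1.05, adjusted p 0.219 in limma). These 2, A and B, were also the highest of their group for *Prkaca* (6.13 and 5.31 FPM) and *Prkacb* (11.0 and 9.36 FPM). For *Prkar2b* they were the lowest (39.1 and 45.3 FPM). As a pair they were neither for *Gpr3*, *Pde3a* or *Prkar1a*, and what sets them apart was not tested. In 2cell embryos the CPEB3+/- libraries held 0.836, 3.59, 3.51, 1.5 and 0.812 FPM and the CPEB3-/- libraries 3.68, 1.89, 2.59 and 3.80 FPM. These groups overlapped as well (log2 fold change 0.53, 95% interval -0.27 to 1.34, adjusted p 0.338 in limma). A pseudogene, *Gm6142*, lies within the gene.

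*Pde3a*, the enzyme whose activity ends the prophase arrest, was lower in CPEB3-/- MII oocytes. It stood at 87.7, 105, 89.0, 105 and 108 FPM in CPEB3+/- and at 73.4, 77.7, 73.5, 67.2 and 80.8 FPM in CPEB3-/- oocytes. The 2 genotypes did not overlap, and the highest CPEB3-/- library lay under the lowest CPEB3+/- one. The level was 1.43-fold lower (log2 fold change -0.52, SE 0.10, adjusted p 0.00167 in limma), under the 1.5-fold needed for a call, and the exact permutation p was 0.00794, the smallest possible. Without any 1 library the adjusted p in limma stayed between 0.00165 and 0.00649. An antisense gene, *Gm28523*, overlaps *Pde3a*, and their fragments cannot be told apart without strand. On the same strand *Gm10400* and *Gm43958* overlap it too, and there strand would not separate them.

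In 2cell embryos no such difference was seen for *Pde3a*. The CPEB3+/- libraries held 13.7, 18.2, 24.8, 25.6 and 20.6 FPM and the CPEB3-/- libraries 19.6, 20.5, 26.8 and 17.8 FPM. The genotypes overlapped almost entirely (log2 fold change -0.02, 95% interval -0.45 to 0.40, adjusted p 0.950 in limma). *Pde3a* had the smallest p of the members for a difference between the 2 genotype effects (0.0461, or 0.207 adjusted in limma), and 0 of the 8 members tested was called for it, against 7.97% of 17769 genes. It was the 1 member with an unadjusted p under 0.05 in that test, as were 22.9% of all genes.

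**Figure D3:**
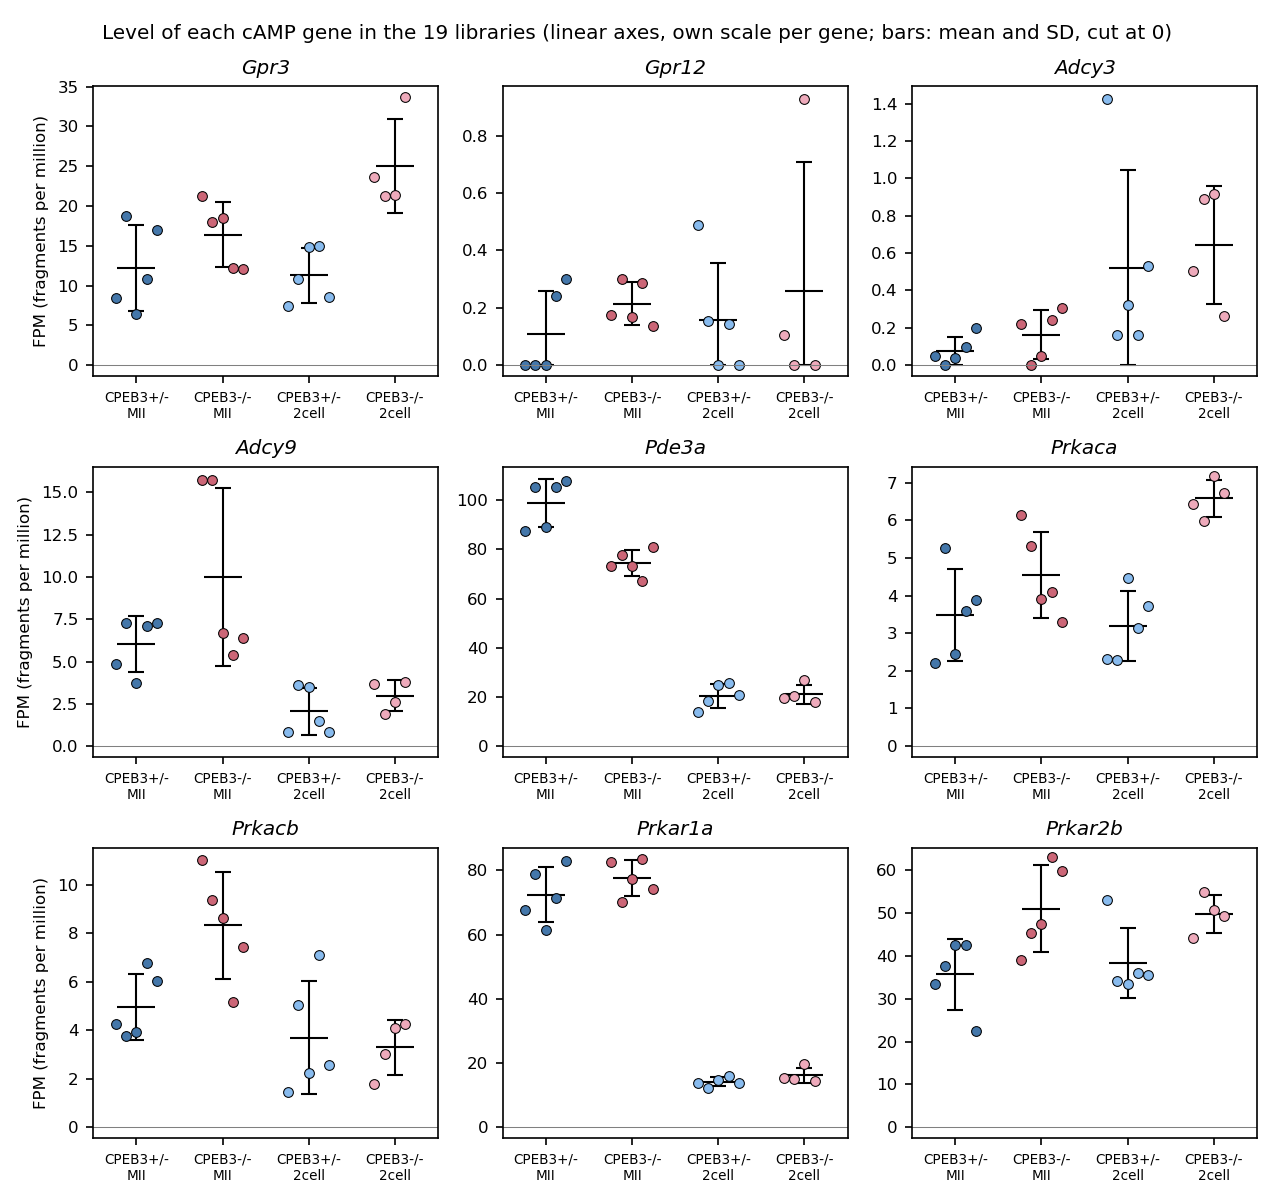
Level of each gene in FPM (linear vertical axes with a scale per gene) in every library of the 4 groups, with the group mean and SD. *Pde3a* shows the CPEB3-/- MII libraries at 67.2 to 80.8 FPM below the CPEB3+/- libraries at 87.7 to 108, and *Gpr3* the CPEB3-/- 2cell libraries at 21.2 to 33.7 FPM above the CPEB3+/- libraries at 7.43 to 14.9.

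The catalytic subunits of PKA each passed the test in 1 stage. *Prkaca*, which encodes the alpha subunit, stood at 2.33, 2.29, 4.46, 3.14 and 3.71 FPM in CPEB3+/- and at 6.44, 5.98, 7.17 and 6.73 FPM in CPEB3-/- 2cell embryos. Each CPEB3-/- embryo library was above each CPEB3+/- library. The level was 1.87-fold higher (log2 fold change 0.90, SE 0.27, adjusted p 0.0201 in limma, exact permutation p 0.00794). The call was lost without 1 CPEB3+/- library (B, adjusted p 0.0511) or 1 CPEB3-/- library (C, adjusted p 0.0549), and when the trend with GC content was removed (log2 fold change 0.61, adjusted p 0.0841 in limma).

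In MII oocytes *Prkaca* stood at 2.20, 5.26, 2.45, 3.60 and 3.88 FPM in CPEB3+/- and at 6.13, 5.31, 3.90, 4.10 and 3.29 FPM in CPEB3-/- libraries. The groups overlapped (log2 fold change 0.27, 95% interval -0.19 to 0.73, adjusted p 0.374 in limma).

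*Prkacb*, the beta subunit, was higher in CPEB3-/- MII oocytes by a margin close to both thresholds. It stood at 4.26, 3.77, 3.93, 6.76 and 6.03 FPM in CPEB3+/- and at 11.0, 9.36, 8.65, 5.16 and 7.45 FPM in CPEB3-/- oocytes. In the latter 4 libraries lay above the whole CPEB3+/- group and the lowest, D, lay within it. The level was 1.5-fold higher (log2 fold change 0.59, SE 0.21, adjusted p 0.0483 in limma, exact permutation p 0.0317). The call was lost in 7 of 10 fits without 1 library: CPEB3+/- A, B or C, or CPEB3-/- A, B, C or E (adjusted p 0.0670 to 0.106). It was kept in 5 of 12 other settings and lost, among others, with quantile scaling (adjusted p 0.0525 in limma), no filter (0.103) and all 19 libraries in 1 fit (0.246). In 2cell embryos *Prkacb* ranged from 1.46 to 7.12 FPM in CPEB3+/- and from 1.79 to 4.25 FPM in CPEB3-/- libraries, the second range within the first (log2 fold change -0.09, 95% interval -0.90 to 0.71, adjusted p 0.890 in limma). A processed pseudogene, *Gm19104*, overlaps *Prkacb* on the opposite strand.

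The regulatory subunits were not called in either stage. *Prkar1a*, the type I alpha subunit, stood at 67.6, 79.0, 61.4, 71.4 and 82.9 FPM in CPEB3+/- and at 82.7, 70.3, 77.4, 83.4 and 74.2 FPM in CPEB3-/- MII oocytes. The groups overlapped and the interval was narrow (log2 fold change -0.01, 95% interval -0.22 to 0.20, adjusted p 0.959 in limma). In 2cell embryos it ranged from 12.2 to 16.0 FPM in CPEB3+/- and from 14.4 to 19.5 FPM in CPEB3-/- libraries (log2 fold change 0.10, 95% interval -0.30 to 0.50, adjusted p 0.741 in limma).

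*Prkar2b*, the type II beta subunit, stood at 33.5, 37.7, 42.5, 42.5 and 22.6 FPM in CPEB3+/- and at 39.1, 45.3, 47.6, 63.2 and 59.9 FPM in CPEB3-/- MII oocytes. In the CPEB3-/- group 4 libraries lay above all CPEB3+/- libraries (log2 fold change 0.41, 95% interval -0.01 to 0.83, adjusted p 0.139 in limma). The CPEB3+/- 2cell libraries held 53.0, 34.1, 33.5, 36.1 and 35.5 FPM and the CPEB3-/- libraries 44.2, 55.0, 50.8 and 49.4 FPM. Apart from the first CPEB3+/- library the genotypes did not overlap (log2 fold change 0.31, adjusted p 0.234 in limma), and without it the log2 fold change was 0.43 (adjusted p 0.0524). The adjusted p of *Prkar2b* depended on the setting. Scaled to the sum it was 0.0214 at MII (log2 fold change 0.58) and 0.0310 at the 2cell stage (0.53), each under 1.5-fold, and at MII it was also under 0.05 unscaled and with the GC trend removed.

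Between MII oocytes and 2cell embryos, *Pde3a*, *Prkar1a* and *Adcy9* fell in both genotypes. FPM is a share of each library, so a gene's fall and a rise of other transcripts cannot be told apart here, and neither can fewer transcripts per cell and fewer cells. With the scaling used throughout, 3 of the 7 members tested were called in CPEB3+/- libraries and 4 of 7 in CPEB3-/- libraries, and each of these was lower. Of all genes tested, 70.7% were called in CPEB3+/- libraries (38.6% higher and 32.1% lower) and 69.0% in CPEB3-/- libraries (37.3% higher and 31.7% lower). The members called were those whose stages did not overlap, as was so for 61.7% and 60.7% of all genes. The sum of the oocyte markers fell along with them, as given above. Both comparisons use the libraries of the genotype comparisons again.

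*Prkar1a* was 5.08-fold lower in CPEB3+/- 2cell embryos than in CPEB3+/- MII oocytes (log2 fold change -2.34, SE 0.13, adjusted p 1.36e-11 in limma) and 4.95-fold lower in CPEB3-/- libraries (adjusted p 7.03e-10). *Pde3a* was 4.90-fold lower in CPEB3+/- (log2 fold change -2.29, SE 0.15, adjusted p 1.58e-10) and 3.66-fold lower in CPEB3-/- libraries (log2 fold change -1.87, SE 0.14, adjusted p 1.37e-08). *Adcy9* was 2.88-fold and 2.91-fold lower (adjusted p 3.35e-04 and 5.25e-04). These 3 genes kept the call in each fit without 1 library and at each other setting in which they passed the filter, but the size moved. The log2 fold change of *Adcy9* lay between -2.14 (quantile scaling) and -0.67 (larger pseudocount) in CPEB3+/- libraries and between -2.10 and -0.87 in CPEB3-/- libraries. That of *Pde3a* came to -1.51 in CPEB3+/- and -1.16 in CPEB3-/- libraries with the deposited FPKM over the span.

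*Prkacb* was 2.46-fold lower in CPEB3-/- 2cell embryos than in CPEB3-/- MII oocytes (log2 fold change -1.30, SE 0.27, adjusted p 4.21e-04 in limma). In CPEB3+/- libraries its log2 fold change was -0.55 (95% interval -1.21 to 0.12) and it was not called, except with quantile scaling (-1.10, adjusted p 0.00787) and without the 2cell library D (-0.80, adjusted p 0.0218). The difference between the 2 changes was -0.71 on the log2 scale (adjusted p 0.349 in limma). *Prkar2b* was called in neither genotype, with a log2 fold change of 0.09 (95% interval -0.32 to 0.50) in CPEB3+/- and -0.08 (-0.45 to 0.29) in CPEB3-/- libraries. *Prkaca* and *Gpr3* changed by -0.11 (-0.62 to 0.39) and -0.08 (-0.61 to 0.45) in CPEB3+/- libraries. In CPEB3-/- libraries *Gpr3* was 1.45-fold higher in 2cell embryos (adjusted p 0.0239 in limma), under the fold needed for a call, so that 5 of the 7 members had an adjusted p under 0.05, against 72.7% of all genes. *Prkaca* stood 1.37-fold higher there (adjusted p 0.0699 in limma). Both depended on the scaling and filter. *Gpr3* was called higher unscaled (log2 fold change 0.60), scaled to the sum (0.92), by quantiles (0.59), with a mean of at least 5 FPM (0.81), and without the CPEB3-/- MII library A (0.64) or 2cell library C (0.60). *Prkaca* was called higher scaled to the sum (0.81) and with that mean filter (0.71). In CPEB3+/- libraries quantile scaling called *Prkaca* lower (-0.74). *Adcy3* did not pass the filter on low values here, and in the 2 settings that tested it, no filter and all 19 libraries in 1 fit, it was called higher in both genotypes (log2 fold changes 0.66 to 0.70, adjusted p 0.0178 to 0.0382 in limma). It was also called in the 1 CPEB3-/- fit without 1 library in which it passed the filter (0.90, adjusted p 0.00293).

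**Figure D4:**
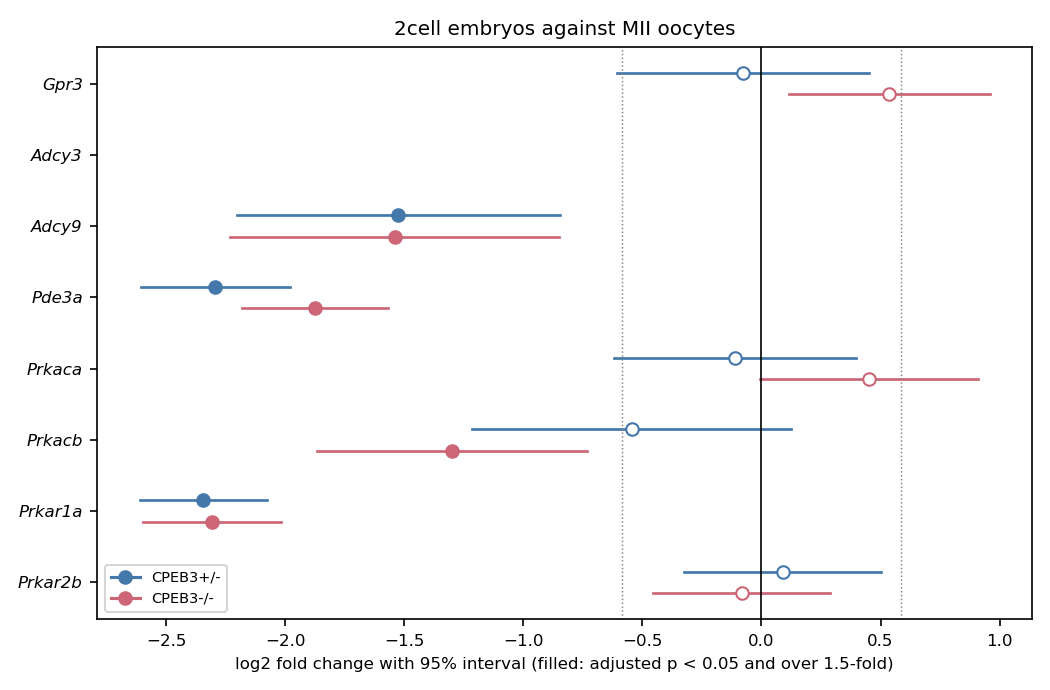
Log2 fold change of 2cell embryos against MII oocytes (horizontal axis) in each genotype, with 95% intervals and dotted lines at 1.5-fold. The filled points of *Prkar1a* (-2.34 and -2.31), *Pde3a* (-2.29 and -1.87) and *Adcy9* (-1.52 and -1.54) lie far below 0 in both genotypes, the points of *Prkar2b* lie at 0.09 and -0.08, and *Adcy3* has no point because it did not pass the filter on low values.

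The make-up of the pathway differed between the stages, described here per kb of exon and without a test. *Prkar1a* made up 63.3 ± 7.80% (SD, n = 5) of the sum of *Prkar1a* and *Prkar2b* in CPEB3+/- MII oocytes and 24.1 ± 3.75% in CPEB3+/- 2cell embryos, and in CPEB3-/- libraries 56.5 ± 5.08% and 21.5 ± 2.64% (n = 4). Neither this share nor the next ratio includes *Prkar2a*, which is no member and stood at 10.3 FPM per kb in CPEB3+/- and 14.9 in CPEB3-/- MII oocytes. The 2 regulatory members together exceeded the 2 catalytic members 14.3 ± 3.52 times in CPEB3+/- MII oocytes and 5.79 ± 0.656 times in CPEB3-/- 2cell embryos, with 12.2 ± 3.75 and 8.82 ± 4.12 times in CPEB3-/- MII oocytes and CPEB3+/- 2cell embryos. *Pde3a* made up 34.6 ± 1.34% of 16 phosphodiesterases of cAMP in CPEB3+/- and 28.5 ± 2.02% in CPEB3-/- MII oocytes, where the ranges did not overlap. In 2cell embryos its share was 16.3 ± 3.26% and 15.7 ± 2.35%, and that of its closest relative *Pde3b* 39.2 ± 3.92% and 32.2 ± 4.83%. *Pde8a* averaged 7.80 ± 0.697 FPM per kb in CPEB3+/- MII oocytes, close to *Pde3a*, and 3.60 ± 0.313 in CPEB3-/- 2cell embryos, close to *Pde3b* at 3.41 ± 0.583. *Adcy9* made up 38.1 ± 3.82% of the 9 listed cyclases in the table in CPEB3+/- MII oocytes and 5.12 ± 3.45% in CPEB3+/- 2cell embryos, where *Adcy2* came up as well.

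**Figure D5:**
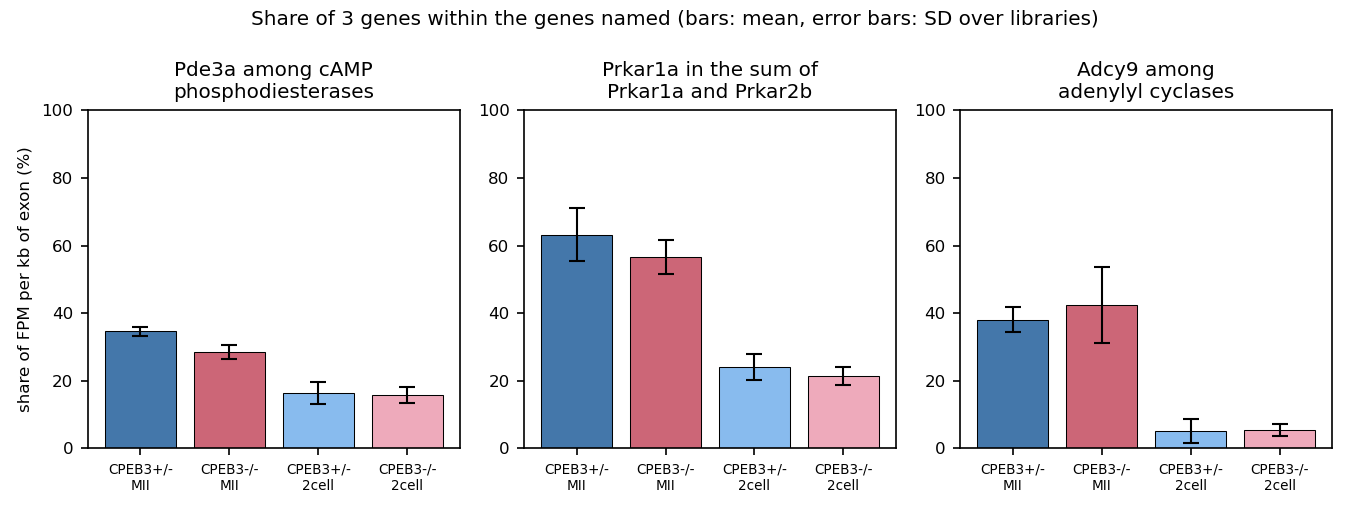
Share of *Pde3a*, *Prkar1a* and *Adcy9* in the summed FPM per kb of exon of, in turn, the cAMP phosphodiesterases, *Prkar1a* with *Prkar2b*, and the listed cyclases (percent, linear axis from 0), as mean and SD over the libraries of each group. *Pde3a* falls from 34.6% and 28.5% in MII oocytes to 16.3% and 15.7% in 2cell embryos, *Prkar1a* from 63.3% and 56.5% to 24.1% and 21.5%.

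The cyclase with the largest share in 2cell embryos was *Adcy2*, named after its values were seen. It averaged 0.0280 ± 0.0257 FPM (SD, n = 5) in CPEB3+/- and 0.0666 ± 0.0541 FPM in CPEB3-/- MII oocytes, under the level of 3 fragments. In 2cell embryos it averaged 25.8 ± 6.46 FPM in CPEB3+/- and 34.8 ± 3.14 FPM (n = 4) in CPEB3-/- libraries, 78.9% and 76.4% of the listed cyclases per kb of exon.

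The other genes around the members were read from 8 lists of 61 genes, of which 57 are in the table. In MII oocytes 43 were tested, 5 were higher and 3 lower in CPEB3-/- libraries, with a median log2 fold change of 0.10. In 2cell embryos 43 were tested, 5 were higher and 2 lower, with a median of 0.15. These counts stand against the 17.8% and 21.3% of all genes given above. Between the stages 9 were higher and 14 lower of 46 in CPEB3+/- 2cell embryos, and 8 higher and 22 lower of 48 in CPEB3-/- embryos, against the 70.7% and 69.0% of all genes called between stages.

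Upstream of the cyclases, limma called 0 of 4 tested receptors and G proteins in MII oocytes, where 2 had an unadjusted p under 0.05, as did 38.4% of all genes at MII and 36.2% at the 2cell stage. In 2cell embryos it called 1 of 5, *Gnas*, the stimulatory G protein alpha subunit through which GPR3 acts, at 30.1 ± 13.1 FPM (SD, n = 5) in CPEB3+/- and 55.2 ± 15.4 FPM (n = 4) in CPEB3-/- embryos (1.78-fold, adjusted p 0.0366). Among the other cyclases, *Adcy1* was called higher in CPEB3-/- MII oocytes, 1 of 5 tested (1.26 ± 0.932 and 3.37 ± 1.87 FPM, adjusted p 0.0235). *Adcy5* was the 1 of 6 called in 2cell embryos, at 3 ± 0.915 FPM in CPEB3+/- and 8.35 ± 1.47 FPM in CPEB3-/- libraries (2.45-fold, adjusted p 0.00280).

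Of the other phosphodiesterases, 3 of 11 tested were higher in CPEB3-/- MII oocytes and 0 lower, against 8.09% and 9.67% of all genes. They were the calmodulin-dependent *Pde1a*, *Pde1b* and *Pde1c*, with *Pde1a* the most changed at 0.998 ± 0.700 FPM in CPEB3+/- and 2.66 ± 1.13 FPM in CPEB3-/- oocytes (2.08-fold, adjusted p 0.0291 in limma). *Pde1b* was also the 1 of 10 called in 2cell embryos (0.660 ± 0.399 and 2.65 ± 1.10 FPM, 2.60-fold, adjusted p 0.00874). Among the other PKA subunits and inhibitors limma called 0 of 4 between genotypes in either stage, with an unadjusted p under 0.05 for 2 in MII oocytes and 1 in 2cell embryos, against the same 38.4% and 36.2% of all genes.

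Of the A-kinase anchoring proteins, which hold PKA at its place in the cell, 2 of 10 were lower in CPEB3-/- MII oocytes (*Akap6* and *Akap9*), against 9.67% of all genes. Another 3, *Akap12*, *Akap2* and *Akap7*, were higher with an adjusted p under 0.05 in limma but under 1.5-fold (1.31-fold, 1.26-fold and 1.25-fold). *Akap6* was 2.99-fold lower (3.88 ± 0.835 and 1.37 ± 1.29 FPM, adjusted p 0.00926 in limma). In 2cell embryos 1 of 11 was higher (*Akap2*) and 2 were lower, with *Akap13* 1.68-fold lower in CPEB3-/- embryos (11.1 ± 3.42 and 6.71 ± 1.89 FPM, adjusted p 0.0460). In the EPAC and CREB family *Rapgef4*, which encodes the cAMP sensor EPAC2, was the 1 of 4 called in MII oocytes and was 1.88-fold lower in CPEB3-/- libraries (6.75 ± 1.16 and 4.06 ± 2.44 FPM, adjusted p 0.0378 in limma). In 2cell embryos limma called 0 of 4 genes of this family, with *Crem* tested in place of *Rapgef3*, and 2 had an unadjusted p under 0.05, against the 36.2% of all genes. In the cyclic GMP arm limma called 0 of 3 genes at MII and 0 of 1 at the 2cell stage, and 0 had an unadjusted p under 0.05. Of the 50 listed genes tested for a difference between the genotype effects of the 2 stages, 1 was called, against 7.97% of all genes. It was *Akap8* (-0.996 on the log2 scale, SE 0.24, adjusted p 0.0117 in limma), which averaged 7.62 and 10.9 FPM in CPEB3+/- and CPEB3-/- MII oocytes and 110 and 78.9 FPM in 2cell embryos.

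Downstream of PKA, *Cdc25b*, the phosphatase that activates CDK1 when oocytes resume meiosis, was higher in both CPEB3-/- groups. It averaged 2.31 ± 0.263 FPM in CPEB3+/- and 6.58 ± 1.61 FPM in CPEB3-/- MII oocytes (2.32-fold, adjusted p 3.63e-04 in limma), and 2.80 ± 1.22 and 9.22 ± 3.71 FPM in 2cell embryos (2.80-fold, adjusted p 0.00481). *Wee2*, the inhibitory kinase that PKA activates in the oocyte, averaged 530 ± 44.1 FPM in CPEB3+/- and 463 ± 50.2 FPM in CPEB3-/- MII oocytes (adjusted p 0.0942 in limma) and was not called in 2cell embryos.

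Over the 19 libraries, the genes most like *Gpr3* in their log2 values were *Smarcd2* (Pearson's r 0.923), *Rbm14* (0.916) and *Axin1* (0.910), and those most like *Pde3a* were *Cecr2* (0.989), *Nus1* (0.989) and *Slc7a11* (0.985). They were the highest of 9884 genes with at least 1 FPM per kb of exon. Because the 4 groups are pooled, r mixes differences between groups with those between libraries of a group. The parts of the 2 were not separated, and r describes these libraries only. *Smarcd2* averaged 16.9 FPM in CPEB3+/- and 38.5 FPM in CPEB3-/- 2cell embryos.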

How the data were processed

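RNA from 19 libraries (SMART-seq v4) was sequenced in paired 150 bp reads. The authors trimmed them with Trim Galore 0.4.1, mapped them to GRCm38 with HISAT2 2.0.5 and deposited FPKM made in SeqMonk. The deposited FPKM were divided by the gene's span, not its exons: of low values in genes with 1 transcript and a span over 3 times the exon length, 86.9 to 90.4% in each library lay within 0.05 of whole fragments with the span and 8.42 to 10.7% with the exon length (10% by chance). In 148 pairs where a gene of at least 20 FPM lay within the span of another over 5 times longer, the outer gene had a median of 0.0589 times the inner value, so fragments of the inner gene were mostly not counted for the outer. FPM is FPKM times the span in kb. Since 1.07% of values lay above 0 but under 1e-06, no count model was used.

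The planned fit assumed FPKM over transcripts, with a pseudocount of 0.1 FPKM. At that value *Pde3a* would need 508 fragments and *Gpr3* 6.29, so FPM was used instead, chosen after the unit was seen, and the larger pseudocount and the mean filter tried beside it were set in FPM too. Whether strand or introns were used in counting is not given in the sources used here. Genes with 0.5 FPM in 5 libraries (MII and CPEB3+/- stages) or 4 (others) were scaled by trimmed means (30% of ratios, 5% of levels) and tested on log2(FPM + 0.5) in limma 3.58.1 (R 4.3.3) with a variance trend and Benjamini-Hochberg adjustment. A fold change on this scale understates that of low genes. The interaction was fitted over all 19 libraries and called by adjusted p alone. Exact permutation tests were two-sided, over 252 or 126 splits. Genes per list were named by the largest called change between genotypes. The members and lists were chosen with earlier results of these data known. The fit was run on simulated counts, drawn separately for each gene and library with no effect shared across a library. That run does not check how well the p values hold in the real libraries. Alternatives were other scalings, pseudocounts and filters, GC correction, 1 fit, a replicate block and each library left out. The labels do not say that libraries came from separate animals, so p values measure the spread between these libraries. Intervals and floors from fragments cover counting error only. There were 0 columns of values not used. Python 3.11.15 was used for the tables.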

Additional observations from a re-analysis of the deposited data

Results flagged for a closer look

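Of 36 sets of values (9 genes in 4 groups), 2 held 1 library far from the others of its group by Dixon's test, and chance gives about 1 in 20. *Gpr12* stood at 0.927 FPM in CPEB3-/- 2cell library C, about 16 fragments, with the next library at 0.106 FPM. *Prkar2b* stood at 53.0 FPM in CPEB3+/- 2cell library A, with the next at 36.1 FPM. The cause of neither was tested.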

How the results depend on the processing

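The number of members called changed with several settings. In MII oocytes it was 2 with no fold threshold and 0 to 1 without 1 library. It was 0 with quantile scaling, the 10 times larger pseudocount, no filter, the replicate block (with or without the GC trend removed) and all 19 libraries in 1 fit. It was also 0 with the planned pseudocount and filter of 0.1 FPKM, on the deposited FPKM over the span or on FPKM over the exons. The plan had set that form of fit, and both were run as alternatives once the unit was seen. In 2cell embryos it was 1 with the larger pseudocount, a mean of at least 5 FPM, and the GC trend removed with or without the block, and 1 to 2 without 1 library. Between stages it was 5 in CPEB3+/- libraries with quantile scaling and 2 to 4 at the other settings. In CPEB3-/- libraries it was 2 with FPKM over the span and 4 to 6 at the other settings, the added calls being *Gpr3*, *Prkaca* and *Adcy3*, all higher. The interaction gave 0 throughout.

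Values near 0 changed sign. *Prkar1a* in MII oocytes was 0.10 unscaled, 0.16 scaled to the sum, 0.0538 by quantiles, 0.0194 with the mean filter, 0.0574 with GC removed (0.0574 with the block added) and 0.0053 over the span. *Pde3a* in 2cell embryos was 0.0561, 0.20, 0.0333, 0.0609, 0.23 and 0.24 in the same order up to the block. There *Adcy3* was -0.15 with GC removed and -0.10 with the block added, *Adcy9* -0.0156 with both, and *Prkacb* 0.10 scaled to the sum and 0.0432 with GC removed. From MII to 2cell in CPEB3+/- libraries, *Gpr3* was 0.17 scaled to the sum and 0.0920 with the mean filter, *Prkaca* 0.12 scaled to the sum, and *Prkar2b* -0.04 with no filter and -0.0135 over the span. In CPEB3-/- libraries *Prkar2b* was 0.31 scaled to the sum, 0.30 by quantiles, 0.19 with the mean filter, 0.24 with GC removed and 0.30 with the block added. In the interaction, *Adcy3* was -0.15 by quantiles, -0.0022 and -0.0613 with the larger and smaller pseudocount, -0.0023 with no filter, -0.17 with GC removed and -0.10 with the block added. *Adcy9* was -0.16 with the larger pseudocount, -0.14 with GC removed, -0.0465 with the block and -0.22 with both, and *Prkar2b* 0.11 by quantiles. Without 1 library, the ranges that crossed 0 were -0.0486 to 0.0235 (*Prkar1a*, MII), -0.15 to 0.0602 and -0.32 to 0.17 (*Pde3a* and *Prkacb*, 2cell), -0.30 to 0.0366 and -0.12 to 0.14 (*Gpr3* and *Prkar2b*, CPEB3+/- stages), -0.17 to 0.0075 (*Prkar2b*, CPEB3-/- stages), and in the interaction -0.13 to 0.26 (*Adcy3*), -0.16 to 0.25 (*Adcy9*), -0.0078 to 0.13 (*Prkar1a*) and -0.25 to 0.0424 (*Prkar2b*). The causes were not tested.

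Scaling to the sum moved the median of all genes to 0.16 in MII oocytes, 0.19 in 2cell embryos and 0.31 and 0.41 between stages, and the share of all calls that were higher from 45.6 to 68.0% at MII, 48.6 to 71.4% at the 2cell stage, 54.1 to 64.7% between CPEB3-/- stages and 38.2 to 56.2% in the interaction. That share at MII was 61.1% unscaled. Quantile scaling moved the stage medians to -0.25 and -0.22 and the share in CPEB3+/- libraries from 54.6 to 43.6%. The 2259 genes called at MII became 916 with the larger pseudocount, 1393 with the mean filter and 1355 over the span, the 3521 at the 2cell stage 2116 with the larger pseudocount and 1723 with GC removed and the block, and the stage calls 5981 (of 10527, CPEB3+/-) and 6019 (of 10858, CPEB3-/-) with the mean filter and 7181 (CPEB3-/-) with the larger pseudocount. Replicate letters did not pair the libraries (correlations of -0.43 to 0.18), 3 of 18 correlating best with their own letter, and the block leaves CPEB3+/- 2cell library E without a partner. Genes under 0.5 FPM, *Gpr12* and in MII *Adcy3*, are limited by depth.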
